A study of Mus musculus with 6 samples.

Results

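The Toll-like receptors are a family of innate immune receptors, and the 10 mouse genes considered here are Tlr1 to Tlr9 and Tlr13. Of these 10, 9 had a probe set named for that gene alone, out of 19938 genes measured in this way, and Tlr5, the flagellin receptor gene, is not analysed here. Expression was measured on arrays in 2 macrophage subsets of regenerating mouse muscle. The mice were of the strain B6.129P2-Lyzstm1(cre)Ifo/J, in which the Cre recombinase was inserted at a lysozyme locus active in myeloid cells, and all of them carried it. The tibialis anterior had been injured with cardiotoxin, a venom component that destroys muscle fibres, and CD45+ cells were taken with magnetic beads 2 days later. They were sorted as Ly6C+ F4/80low or Ly6C- F4/80high, and each of 3 mice gave both subsets, so that 6 arrays carry 3 samples per subset. No uninjured muscle and no age are given in the labels.

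Toll-like receptors recognise molecules of microbes and of damaged cells, and macrophages use many of them. TLR1, TLR2, TLR4, TLR5 and TLR6 sit at the cell surface and bind lipopeptides, lipopolysaccharide or flagellin. TLR3, TLR7, TLR8, TLR9 and TLR13 are carried to endosomes, where they meet RNA or DNA. The receptors signal through the adaptors MyD88 and TRIF to the transcription factors of the NF-kB and interferon regulatory factor families.

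The genes of the gates were read first. Ly6c1 and Ly6c2 share 2 probe sets, which read 10.5-fold and 9.08-fold lower in the Ly6C- F4/80high samples, and Adgre1, which encodes the surface protein of the second gate, was higher by 0.73 (SE 0.07, limma adjusted p = 4.46e-05). The gene of CD45, Ptprc, on whose product the cells of both subsets were collected, fell by 0.64 (SE 0.07, limma adjusted p = 0.000127). The 8 macrophage markers, Csf1r, Itgam and Cd68 among them, were above the background in both subsets. Lyz2, also one of the 8, is a lysozyme gene, and these mice carried Cre at a lysozyme locus. Its level may therefore not be that of an unaltered gene, which was not tested. By the threshold given below, 3 of the 8 were called higher, 3 lower and 2 neither, beside 19.5% higher and 14.3% lower over all genes. Every difference given is on the log2 scale and is positive where the Ly6C- F4/80high cells were higher. A gene was called higher or lower at a limma adjusted p under 0.05 over all 19938 genes. The background is 5.44 on the log2 scale, the 95th percentile of 1194 olfactory and vomeronasal receptor genes, which these cells are not known to use. Levels of different genes cannot be compared, because each probe set has its own brightness.

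Among the 9 measured Toll-like receptor genes, 3 were higher (Tlr3, Tlr8 and Tlr13) and 2 lower (Tlr2 and Tlr9) in the Ly6C- F4/80high subset, and 4 were not called (Tlr1, Tlr4, Tlr6 and Tlr7). Over all genes 33.8% were called, 19.5% higher and 14.3% lower. These shares count 7194 genes with both means below the background, while no receptor had both below it. Without the 50% of genes of lowest level 5720 genes were called, 3791 higher and 1929 lower. The share called was thus larger among genes of higher level than over all genes. The receptors of endosomes accounted for 4 of the 5 receptor calls. The median difference was 0.49 for the 5 endosomal genes and -0.05 for the 4 cell surface genes, beside -0.06 for all genes. The 3 arrays of one subset lay entirely above those of the other for 6 of the 9 genes, against 48.1% of all genes, those below the background included. In cells sorted in bulk, fewer cells with a transcript and less of it per cell cannot be told apart.

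**Figure D1:**
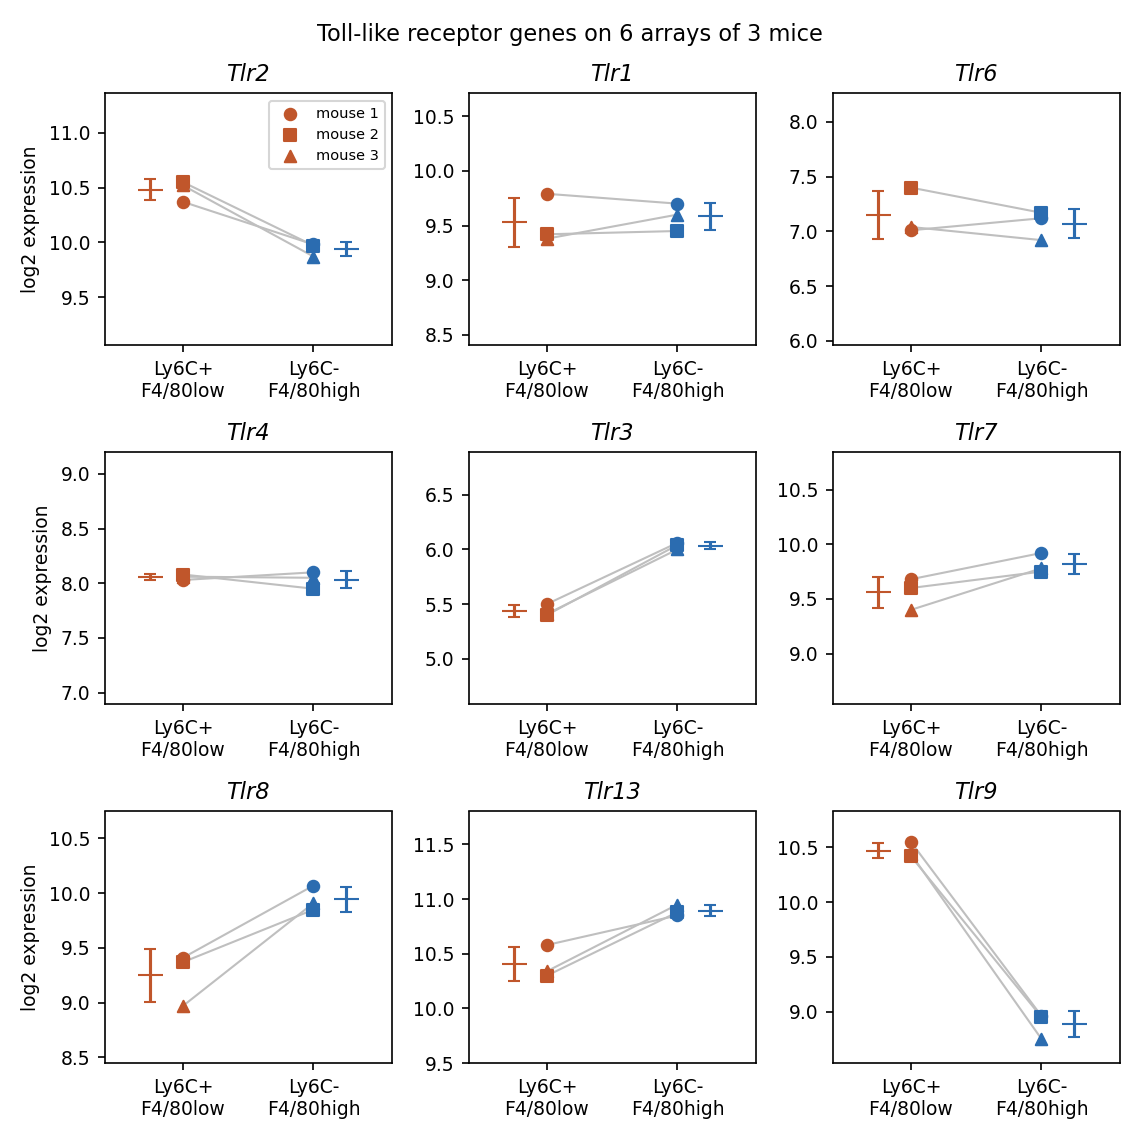
Each panel plots the log2 expression of 1 Toll-like receptor gene on the 6 arrays, with markers for mice 1 to 3, lines joining the subsets of a mouse and bars for the mean ± SD of 3 arrays; every panel spans the same range of 2.3 log2 units. The Tlr9 lines fall steeply toward the Ly6C- F4/80high cells, those of Tlr3, Tlr8 and Tlr13 rise, and those of Tlr1, Tlr4 and Tlr6 cross or stay level.

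The promoters of the genes with the strongest calls are shown first, the 2 lower (Tlr9 and Tlr2) and the largest 2 of the 3 higher (Tlr8 and Tlr3). Each sequence runs 5′ to 3′ on the gene's strand from 250 bases before the annotated start site to 20 bases after it, from RefSeq on build GRCm38.p6. The positions are chr9:106222348-106222617 on the plus strand for Tlr9 and, on the minus strand, chr3:83841589-83841858 for Tlr2, chrX:167264310-167264579 for Tlr8 and chr8:45410361-45410630 for Tlr3. Capitals mark matches on either strand to motifs of PU.1 (GAGGAAGT), of AP-1 (TGANTCA), of NF-kB (GGGA and CC with 4 bases of any kind between), to the interferon response element (GAAA repeated after 2 bases of any kind) and to the E-box (CACGTG). These 5 were kept from 14 patterns scanned, after the matches in the receptor promoters had been seen.
Tlr9: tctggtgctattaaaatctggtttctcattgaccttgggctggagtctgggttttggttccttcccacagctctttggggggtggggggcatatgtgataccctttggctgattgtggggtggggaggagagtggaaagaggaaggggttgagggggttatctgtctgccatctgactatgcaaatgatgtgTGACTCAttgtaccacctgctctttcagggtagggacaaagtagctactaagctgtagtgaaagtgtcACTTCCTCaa
Tlr2: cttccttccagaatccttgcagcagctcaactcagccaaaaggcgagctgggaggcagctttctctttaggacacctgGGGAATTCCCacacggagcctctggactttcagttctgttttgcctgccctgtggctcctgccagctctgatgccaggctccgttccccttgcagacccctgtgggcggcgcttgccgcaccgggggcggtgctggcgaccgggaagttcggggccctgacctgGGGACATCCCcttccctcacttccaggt
Tlr8: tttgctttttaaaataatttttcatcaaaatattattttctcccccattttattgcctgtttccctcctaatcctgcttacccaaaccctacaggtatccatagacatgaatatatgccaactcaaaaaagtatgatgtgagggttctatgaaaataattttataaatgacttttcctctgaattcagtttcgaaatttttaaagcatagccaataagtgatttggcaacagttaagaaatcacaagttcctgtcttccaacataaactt
Tlr3: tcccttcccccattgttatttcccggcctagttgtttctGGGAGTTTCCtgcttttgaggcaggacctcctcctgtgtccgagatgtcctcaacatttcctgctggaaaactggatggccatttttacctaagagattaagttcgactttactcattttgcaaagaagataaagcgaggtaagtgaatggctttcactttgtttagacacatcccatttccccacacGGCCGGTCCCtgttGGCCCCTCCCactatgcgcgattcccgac
The Tlr9 window held an AP-1 match and a PU.1 match, that of Tlr2 held NF-kB matches at 2 places and that of Tlr3 at 3, and that of Tlr8 held no match to any of the 5 motifs marked. Tlr3 and Tlr2 thus both held NF-kB letters and were called in opposite directions. Over the 32851 promoters of the same length, 18.9% held the NF-kB letters, 7.23% those of AP-1 and 2.72% those of PU.1. Of the listed receptor genes 8 had a promoter in the table, and Tlr4 and Tlr7 had none. Among those 8, NF-kB letters occurred in Tlr2, Tlr3 and Tlr5, PU.1 letters in Tlr1 and Tlr9, and AP-1 letters in Tlr9. The interferon response element, in 3.21% of promoters, occurred in Tlr6 at 2 places that overlap, and the E-box, in 6.57%, in Tlr1. No matches of different marked motifs overlapped. The 9 patterns scanned and not marked matched as follows. Another interferon response form (TTTCACTTT), in 0.548% of promoters, occurred in Tlr3 and Tlr6, and the interferon gamma activated site (TTCNNNGAA), in 7.58%, in Tlr1, Tlr6 and Tlr8. The C/EBP letters (TTNNNCAA), in 34.8%, occurred in 6 of the 8 genes, all but Tlr2 and Tlr5, and the TATA box (TATAAA), in 12.9%, in Tlr6 and Tlr8. GATA letters (GATAA), in 23.8%, occurred in Tlr1, Tlr3 and Tlr9, and RUNX letters (TGTGGT), in 15.1%, in Tlr6. The cyclic AMP response element (TGACGTCA), in 1.73%, occurred in none of the 8. Shorter PU.1 forms, AGGAAGT in 8.43% and GGAAGT in 21.7%, both occurred in Tlr1, Tlr6 and Tlr9, and the shorter of them in Tlr2 too. They overlap the marked PU.1 letters by construction. Because the marked motifs were picked with their matches in view, their presence in these promoters supports nothing, and a match is a description of letters, not a measured binding site.

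**Figure D2:**
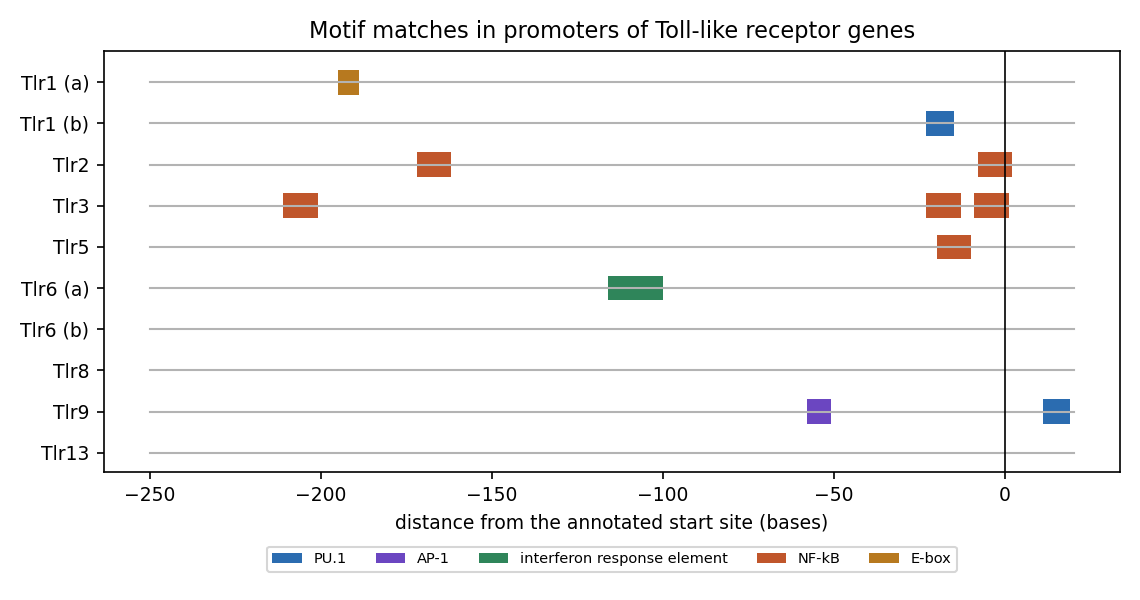
Boxes mark matches to the 5 marked motifs along the promoters of 8 Toll-like receptor genes, with the distance from the annotated start site in bases on the horizontal axis; Tlr1 and Tlr6 have 2 annotated start sites each, a and b. Matches were few, 3 NF-kB boxes in Tlr3 being the most of any promoter, and Tlr8, Tlr13 and 1 of the Tlr6 promoters carried none.

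TLR2 forms pairs with TLR1 or TLR6 that bind bacterial lipopeptides, and of these 3 genes only Tlr2 was called. Tlr2 stood at 9.98, 9.97 and 9.87 in the Ly6C- F4/80high arrays of mice 1, 2 and 3 and at 10.37, 10.55 and 10.52 in their Ly6C+ F4/80low arrays. The subsets did not overlap, and the gene fell by 0.54 (SE 0.08, 95% interval -0.72 to -0.35, limma adjusted p = 0.000674), which is 1.45-fold. Its difference was -0.39, -0.57 and -0.65 in the 3 mice.

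Tlr1 stood at 9.70, 9.45 and 9.60 in the Ly6C- F4/80high arrays and at 9.79, 9.42 and 9.38 in the Ly6C+ F4/80low arrays, in the same order of mice. The arrays overlapped, and the difference was 0.05 (SE 0.12, limma adjusted p = 0.757) with a 95% interval of -0.21 to 0.31. Tlr6 stood at 7.12, 7.17 and 6.92 against 7.01, 7.40 and 7.04, again overlapping. Its difference was -0.08 (SE 0.12, limma adjusted p = 0.610), with an interval of -0.34 to 0.18. Tlr1 and Tlr6 lie next to each other on chromosome 5, with 0 protein-coding genes between them in the RefSeq order. The intervals of both end short of the fall seen for Tlr2, though the difference between the genes was not tested.

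TLR4 is the receptor of bacterial lipopolysaccharide. Tlr4 stood at 8.10, 7.95 and 8.05 in the Ly6C- F4/80high arrays and at 8.03, 8.08 and 8.06 in the Ly6C+ F4/80low arrays, which overlapped. The difference was -0.02 (SE 0.08, limma adjusted p = 0.848), and its 95% interval of -0.19 to 0.15 was the narrowest among the 4 genes not called. After quantile normalization the difference was -0.19 (adjusted p = 0.0785), the most negative value for this gene over 20 alternatives.

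TLR9 binds DNA with unmethylated CpG motifs, and its gene had the largest difference of the family. Tlr9 stood at 8.96, 8.95 and 8.75 in the Ly6C- F4/80high arrays and at 10.55, 10.42 and 10.44 in the Ly6C+ F4/80low arrays. The lowest Ly6C+ F4/80low array was well above the highest of the others, and Tlr9 fell by 1.58 (SE 0.09, 95% interval -1.77 to -1.38, limma adjusted p = 1.22e-06), a 2.98-fold difference. It was the only receptor of the 9 past 2-fold. The difference was -1.59, -1.46 and -1.68 in mice 1, 2 and 3, and between -1.67 and -1.51 over 20 alternatives.

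Genes of other cells known for Tlr9 were read in the same arrays. Over all genes 19.5% were called higher and 14.3% lower, the comparison for both marker lists here. Of 6 measured plasmacytoid dendritic cell markers, 3 fell and 1 rose toward the Ly6C- F4/80high subset, and 2 were not called. The marker that rose was Cox6a2 (7.63 against 7.12, limma adjusted p = 0.00103). The log2 of the summed level of the 6 markers ran from 9.73 to 9.80 in the Ly6C- F4/80high arrays and from 9.66 to 9.77 in the others, a sum that the brightest probe sets, Tcf4 and Cox6a2, dominate. Their mean log2 level, in which each gene counts alike, ran from 6.20 to 6.26 against 6.43 to 6.62, lower in the Ly6C- F4/80high arrays without overlap. Siglech, a surface lectin used as a marker of these cells, was 5.24 in the Ly6C- F4/80high arrays, none of which was above the background, against 5.96. Ccr9, a chemokine receptor, was 4.91 against 5.78. Of 6 B cell markers 1, Cd79b, was higher and 5 were not called, the log2 sum running from 8.15 to 8.28 against 8.04 to 8.13 and the mean log2 level from 5.13 to 5.28 against 5.20 to 5.23. The B cell receptor gene Cd79a and Ms4a1, which encodes CD20, were not above the background on any array. Cd79b and Fcmr were above it on all 6 arrays, Pax5 on 2 Ly6C+ F4/80low arrays and Blk on 1. The part of these cells in the Tlr9 difference was not tested.

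The 4 receptors of RNA had positive differences, and 3 of them were called. TLR3 binds double-stranded RNA. Tlr3 stood at 6.06, 6.04 and 6.0 in the Ly6C- F4/80high arrays and at 5.50, 5.40 and 5.41 in the Ly6C+ F4/80low arrays, without overlap. Only 1 of the 3 Ly6C+ F4/80low arrays was above the background. The gene rose by 0.60 (SE 0.07, 95% interval 0.44 to 0.76, limma adjusted p = 0.000172), and by 0.56, 0.64 and 0.59 in the 3 mice. So close to the background this 1.52-fold difference may be understated, and with the background at the 99th percentile, 6.16, no array of either subset was above it. Among conventional dendritic cell markers, whose cells are known for Tlr3, 4 of 8 were lower in the F4/80high subset, beside 14.3% of all genes. The log2 sums of the 8 markers ran from 8.30 to 8.37 against 8.85 to 8.88. Of these markers Cd209a (5.60 against 6.79) and Ccr7 (6.52 against 6.90) were above the background on all arrays and lower, and Flt3 (5.22 against 5.89) was lower and above it on the 3 Ly6C+ F4/80low arrays alone. Dpp4, the fourth lower, and Xcr1, Clec9a and Itgae were not above the background on any array. Zbtb46 (5.54 against 5.80, limma adjusted p = 0.0879) was not called, and its arrays overlapped. It was above the background on 2 Ly6C- F4/80high and 3 Ly6C+ F4/80low arrays. The part of these cells in the Tlr3 difference was not tested.

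TLR7 and TLR8 are related receptors of single-stranded RNA, and their genes are neighbours on the X chromosome with 0 protein-coding genes between them. Tlr8 stood at 10.07, 9.85 and 9.91 in the Ly6C- F4/80high arrays and at 9.41, 9.37 and 8.97 in the Ly6C+ F4/80low arrays. The subsets did not overlap, and the Ly6C+ F4/80low array of mouse 3 lay below the other two of its subset. Tlr8 rose by 0.69 (SE 0.12, 95% interval 0.42 to 0.96, limma adjusted p = 0.00153), a 1.61-fold difference, with 0.66, 0.48 and 0.94 in the 3 mice. Without that array the difference was 0.55 (adjusted p = 0.00286).

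Tlr7 stood at 9.92, 9.75 and 9.78 in the Ly6C- F4/80high arrays and at 9.68, 9.60 and 9.40 in the Ly6C+ F4/80low arrays. The subsets did not overlap here either, but the difference of 0.26 (SE 0.09, 95% interval 0.05 to 0.47) missed the threshold (limma adjusted p = 0.0586). The interval is not adjusted for the number of genes. It was past the threshold under 6 of 20 alternatives, among them a common median (0.28, adjusted p = 0.0479) and leaving out the Ly6C+ F4/80low array of mouse 1 (0.32, adjusted p = 0.0412). The mouse-wise differences of Tlr7 were 0.24, 0.15 and 0.37, each smaller than that of Tlr8 in the same mouse, and the difference between the neighbours was not tested.

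TLR13 binds a stretch of bacterial ribosomal RNA. Tlr13 stood at 10.85, 10.88 and 10.95 in the Ly6C- F4/80high arrays and at 10.58, 10.30 and 10.34 in the Ly6C+ F4/80low arrays, without overlap. It rose by 0.49 (SE 0.09, 95% interval 0.28 to 0.69, limma adjusted p = 0.00247), which is 1.40-fold, and by 0.27, 0.58 and 0.61 in the 3 mice. The smallest of these belongs to mouse 1, whose Ly6C+ F4/80low array was the highest of its subset. Without mouse 3 the adjusted p was 0.0453, the closest to the threshold that any of the 5 called receptors came. Of the receptor genes outside the 10, Tlr12 was measured, with 5.08 ± 0.21 (SD, n = 3) against 5.17 ± 0.09, and was not above the background in either subset, and Tlr11 is not analysed here.

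**Figure D3:**
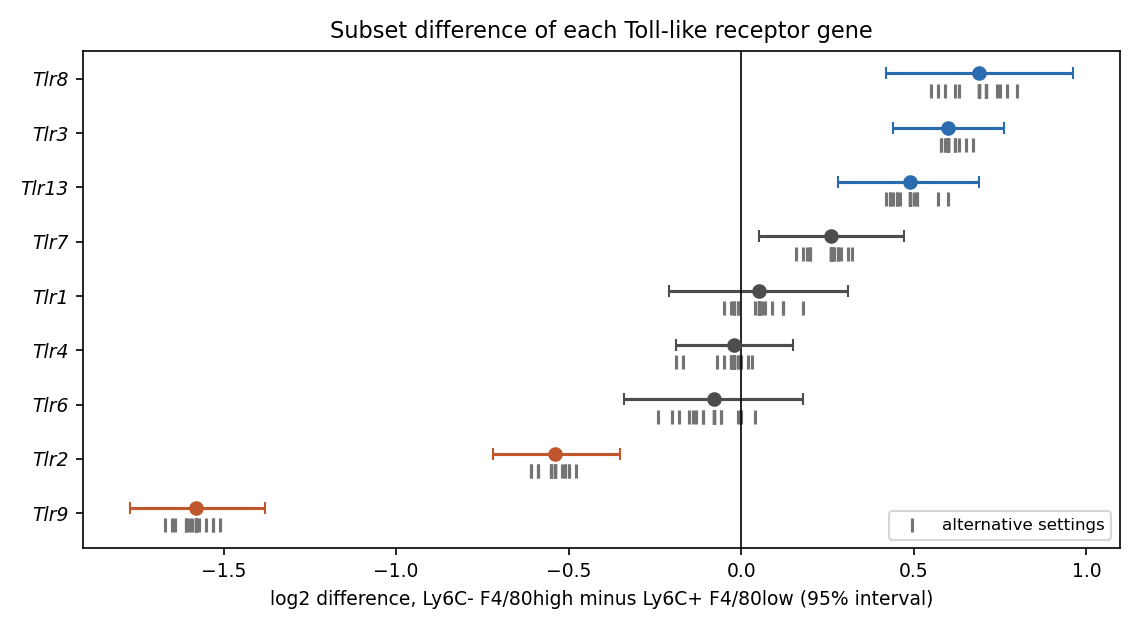
Points give the log2 difference between the subsets, positive where the Ly6C- F4/80high arrays were higher, for each of 9 Toll-like receptor genes with its 95% interval (3 arrays per subset), coloured by call, and the ticks under each point give the same difference under the alternative settings. The ticks of Tlr9 stay between -1.67 and -1.51, those of Tlr8 between 0.55 and 0.80, and those of Tlr1, Tlr4 and Tlr6 lie on both sides of zero.

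The proteins that help the receptors bind their ligands were split. Of 8 co-receptors and accessory proteins 4 were called higher and 2 lower, 2 missed the threshold, and the median was 0.11 beside -0.06 for all genes. The all-gene values, a median of -0.06 with 19.5% higher and 14.3% lower, are the comparison for every list below. They include genes below the background, among which fewer are called. Cd14, which hands lipopolysaccharide to TLR4 and also serves TLR2, stood at 11.37, 11.56 and 11.51 in the Ly6C- F4/80high arrays and at 11.83, 11.94 and 11.94 in the others. It fell by 0.42 (SE 0.08, limma adjusted p = 0.00288). Ly96, which encodes MD-2, the ligand-binding partner of TLR4, had non-overlapping arrays but a difference of only -0.19 (SE 0.08, limma adjusted p = 0.111). Trem1, an amplifier of Toll-like receptor signals, fell by 2.25 (SE 0.15), whereas Cd36, a scavenger receptor that can assist TLR2 with TLR6, rose by 1.57 (SE 0.08) and Lbp, the lipopolysaccharide-binding protein gene, by 0.80 (SE 0.09). Cd180, a relative of TLR4 that lacks a signalling domain, is named here after its values were seen. It stood at 12.03 on all 3 Ly6C- F4/80high arrays and at 11.59, 11.36 and 11.28 on the others, a rise of 0.62 (SE 0.09, limma adjusted p = 0.000560).

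Genes for transport and folding of the receptors differed little. By limma 0 of 8 were higher, 1 was lower and 7 missed the threshold; their median was 0.10 and their range -0.27 to 0.17. Unc93b1, the chaperone that takes the nucleic acid receptors to endosomes, was 10.52 ± 0.04 (SD, n = 3) against 10.45 ± 0.07, a difference of 0.07 (SE 0.08, 95% interval -0.10 to 0.24, limma adjusted p = 0.494). The lower gene was Slc15a3, a peptide transporter of endosomes, at -0.27 (limma adjusted p = 0.0411), a call that was lost under 10 of 20 alternatives.

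Genes of the endosomal proteases and nucleases were mostly higher in the Ly6C- F4/80high cells, with 7 of 8 measured higher and 1 lower. Their median was 0.54, beside -0.06 and 19.5% higher for all genes. The proteases cut the receptors of nucleic acids into their active form, and the nucleases set how much RNA or DNA reaches them. Ctsk, a cysteine cathepsin, rose by 1.31 (SE 0.11) and Ctsl, another, by 0.90 (SE 0.09, limma adjusted p = 4.23e-05). The lower gene was Pld4, a lysosomal exonuclease that removes single-stranded DNA and limits TLR9. It stood at 10.86, 10.93 and 10.85 in the Ly6C- F4/80high arrays and at 11.52, 11.39 and 11.28 in the others, and fell by 0.52 (SE 0.08, limma adjusted p = 0.000939). Pld4 and Tlr9 thus fell in the same direction.

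Signal transmission genes were lower where they were called, apart from 2 kinase genes and 1 transcription factor gene. Among 6 measured adaptors 5 were lower and 1 not called (median -0.28), 1 of them, Sarm1, below the background in both subsets. Myd88, the adaptor shared by all Toll-like receptors except TLR3, stood at 9.73, 9.66 and 9.69 in the Ly6C- F4/80high arrays and at 10.31, 10.05 and 10.07 in the others, and fell by 0.45 (SE 0.09, limma adjusted p = 0.00305). Ticam1, which encodes TRIF, the adaptor of TLR3 and TLR4, fell by 0.30 (SE 0.08, limma adjusted p = 0.0154), a call lost without mouse 1, either of its arrays or mouse 3, and Ticam2, its bridge to TLR4, by 0.55 (SE 0.11). The adaptor count was 2, Myd88 and Ticam2, without either array of mouse 1, without mouse 1 and without mouse 3.

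Of 15 measured kinases and ubiquitin ligases 2 were higher, 5 lower and 8 not called (median 0.04). Irak2, a kinase of the MyD88 complex, fell by 0.64 (SE 0.12) and Ikbkb, the kinase that releases NF-kB, by 0.50 (SE 0.09). Ikbkg, the scaffold of that kinase, rose by 0.35 (SE 0.09) and Btk, a tyrosine kinase, by 0.33 (SE 0.09), but neither was called after quantile normalization, after cyclic loess or without mouse 3, and Btk was not called without either array of that mouse. Without mouse 3 the count of called genes in this list was 3, all lower.

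Among 11 transcription factors at the end of the pathway 7 were lower, 1 higher and 3 not called (median -0.39). Irf7, which carries TLR7 and TLR9 signals to interferon genes, stood at 8.93, 8.98 and 8.84 in the Ly6C- F4/80high arrays and at 10.26, 10.26 and 10.11 in the others. It fell by 1.29 (SE 0.08, limma adjusted p = 2.64e-06). Rel, an NF-kB subunit, fell by 0.80 (SE 0.09), and Irf8, a factor of myeloid development, rose by 0.29 (SE 0.09, limma adjusted p = 0.0284), a call lost under 9 of 20 alternatives. When the F4/80high array of mouse 3 was left out, the list had 5 called genes, all lower.

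The brakes of the pathway were also mostly lower where called. Of 14 measured negative regulators 7 were lower, 1 higher and 6 not called (median -0.24). Tnip3, an inhibitor of NF-kB that is itself induced by lipopolysaccharide, fell by 1.45 (SE 0.11) and Tnip1, its relative, by 0.57 (SE 0.08). Irak3, a kinase relative that blocks release from the MyD88 complex, stood at 9.19, 9.17 and 9.22 in the Ly6C- F4/80high arrays and at 9.54, 9.60 and 9.68 in the others, and fell by 0.42 (SE 0.07, limma adjusted p = 0.00191). Tollip, an inhibitor of receptor signalling, rose by 0.34 (SE 0.09), a call lost under 4 of 20 alternatives, after cyclic loess (0.25, limma adjusted p = 0.0535) and without mouse 2 (0.33, limma adjusted p = 0.0678), mouse 3 or the F4/80high array of mouse 3. The list's count was 5 when the F4/80high array of mouse 3 was left out and 4 when both arrays of that mouse were, and Tollip was called in neither.

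Reported endogenous ligands and induced genes were read last. Of 9 proteins reported to stimulate Toll-like receptors, 0 were higher, 4 lower and 5 not called (median -0.21). With the mouse as a block 1 was higher, S100a8 (0.30, limma adjusted p = 0.0248, with 0.36, 0.29 and 0.25 in the 3 mice), and 3 were lower, Fn1 no longer being called (-0.23, limma adjusted p = 0.0642). Vcan, the gene of versican, a matrix proteoglycan reported to act on TLR2, fell by 4.37 (SE 0.08), in the same direction as Tlr2. Bgn, the gene of biglycan, reported to act on TLR2 and TLR4, was at least 1.87-fold lower in the Ly6C- F4/80high arrays, none of which was above the background. Its Ly6C+ F4/80low arrays stood at 6.98, 5.93 and 6.11, and without the one of mouse 1 the difference was -0.75 and the bound 1.5-fold. The fibroblast gene Dcn was also highest on that array (6.79, against 5.70 and 5.55 in mice 2 and 3). Among 19 genes that Toll-like receptors induce, 11 were lower, 1 higher and 7 not called (median -0.35), and 1 of the lower, Il12a, was not above the background on any array. Il6 was at least 1.76-fold lower, Il1b fell by 1.61 (SE 0.09), and Tnf differed by -0.01 (SE 0.10, limma adjusted p = 0.929). Cxcl1, a neutrophil-attracting chemokine, was the higher one at 0.54 (SE 0.18, limma adjusted p = 0.0383), with overlapping arrays and a call lost under 8 of 20 alternatives. Counting each gene of the 9 pathway lists once, 16 of 98 were higher and 43 lower, beside 19.5% and 14.3% of all genes, those below the background included. The lists were written with earlier results of these arrays in view, so these shares describe the genes listed.

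**Figure D4:**
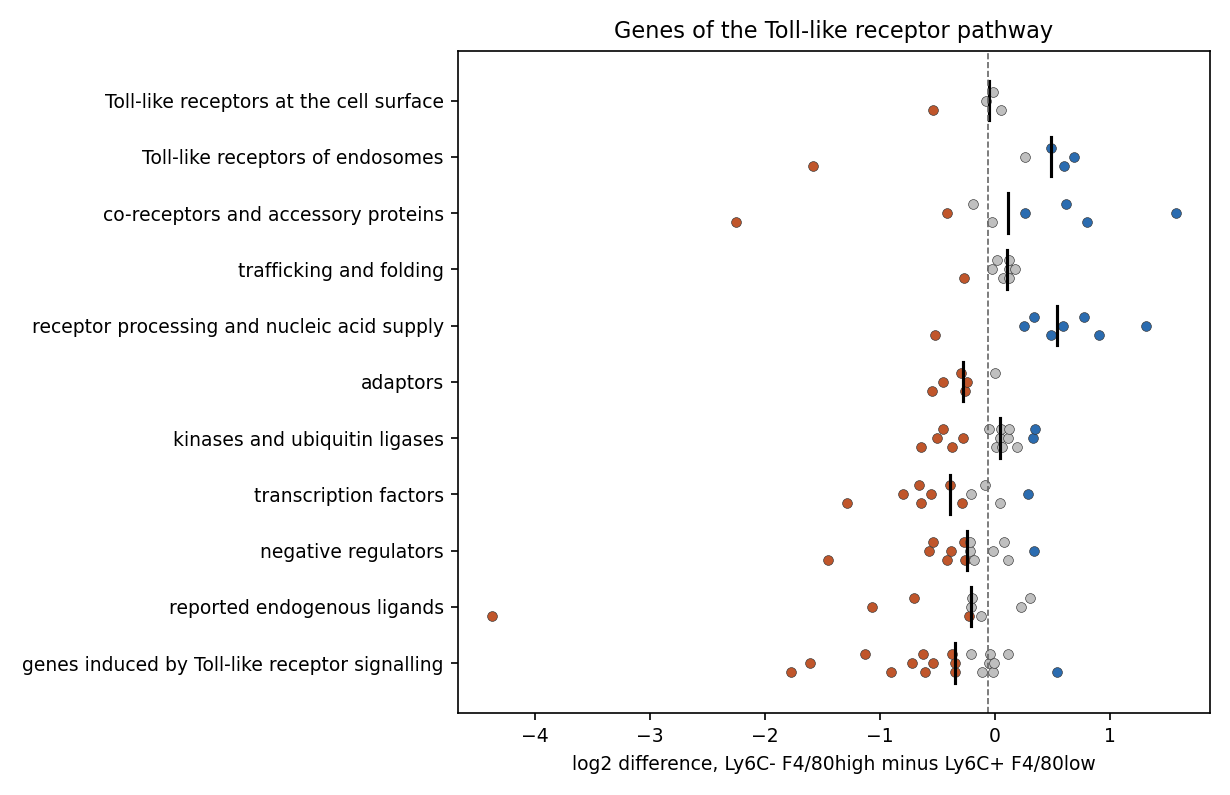
Each point is the log2 difference of 1 gene between the subsets, positive where the Ly6C- F4/80high arrays were higher, blue where called higher, orange where called lower and grey where not called; black bars are list medians and the dashed line is the median of all genes, -0.06. The endosomal protease and nuclease list sits to the right with 7 of 8 genes higher, and the adaptor, transcription factor and induced gene lists sit to the left.

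Other cell types were checked by their markers. Of 8 neutrophil markers 2 were lower, Ly6g and Cxcr2, both below the background on every array, and the log2 sums, set mostly by Csf3r, ran from 9.78 to 9.79 in the Ly6C- F4/80high arrays and from 9.77 to 9.86 in the others. The mean log2 level of the neutrophil markers ran from 5.26 to 5.32 against 5.39 to 5.54, lower without overlap. Of 6 T and NK cell markers 1 was lower, Cd3e, a T cell receptor subunit gene above the background on all 6 arrays (5.63 against 6.08, limma adjusted p = 0.00287). The sums ran from 7.28 to 7.46 against 7.50 to 7.72, and Cd3d and Ncr1 were not above the background on any array. Of 7 endothelial and fibroblast markers 6 were lower, with sums from 8.79 to 8.93 against 9.44 to 9.66, and the endothelial cadherin gene Cdh5 differed by -1.51 (SE 0.10), the largest fall in this list. Kdr, an endothelial receptor gene above the background on all 6 arrays, was not called (6.60 against 6.49). Muscle markers were lower in 2 of 6 cases, with sums from 8.54 to 8.65 against 8.63 to 8.69 and mean log2 levels from 5.82 to 5.92 against 5.96 to 6.0. The part of these cells in the receptor differences was not tested.

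For the 4 receptor genes with the largest called differences, the genes with the most similar values over the 6 arrays were found by the root mean square difference of mean-centred log2 values. Genes with symbols of predicted or uncharacterised genes, microRNAs, or olfactory or vomeronasal receptors were left out of this search. Since the 6 arrays are 2 subsets of the same 3 mice, likeness mostly reads the size of the subset difference. For Tlr9 the most similar of the genes searched were Il1b (0.082), the lectin receptor gene Clec4a2 (0.092) and the co-stimulatory gene Cd80 (0.097). Tlr8 had Prkra (0.014), which encodes an activator of an RNA-dependent kinase, Rbl2 (0.041) and Alms1 (0.058). Closest to Tlr3 were Xpa (0.019), a DNA repair gene, Ctc1 (0.021) and Tmem9b (0.023), and to Tlr2 Rhou (0.019), Acsl4 (0.035) and Tnip1 (0.035), the last also a member of the list of negative regulators.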

How the data were processed

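Total RNA of 6 sorted samples, 150 ng each, was hybridised to 1 array per sample, per the labels' protocols. The authors deposited log2 expression values made with RMA, per the submitters' processing notes, which name no version; software and settings were not given in the sources used here. Arrays give no read depth, and their number limits the precision. RMA compresses low signals.

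Of 35556 probe sets 21789 carried 1 gene symbol, 1621 several and 12146 none. For each of the 19938 symbols the probe set of highest mean over the 6 arrays was used; each Toll-like receptor gene had 1. The subsets were compared by limma 3.58.1 under R 4.3.3 (lmFit, eBayes, two-sided), with no level filter and Benjamini-Hochberg adjustment over all genes. Where no array of a subset was above the background, fold differences are bounds with those arrays set to it. On simulated data with 200 of 19938 genes changed, the same test recovered 57% of the genes whose log2 change was 0.5, 94% where it was 1 and 100% where it was 2. In the measured data 33.8% of genes were called, so the adjustment there was less strict than in the simulation. The recovered shares are therefore not the power of the comparison made here.

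The members, lists, naming rule and background level were chosen with earlier results of these data known. The rule names all measured members, Tlr12, the gate genes, up to 2 called genes per list and direction with the largest differences, and Cd14, Ly96, Unc93b1, Myd88, Ticam1, Irak3 and Tnf. Promoters came from RefSeq (GRCm38.p6); no build of the probe sets is named in the sources used here. The promoter motifs were kept from a scan of 14 patterns after seeing their matches.

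Both subsets of a mouse share its number. Their deviations from the subset means correlated at 0.033, -0.084 and 0.087 across genes in mice 1, 2 and 3. Since no paired test is named in the labels, the mouse entered as a block only in an alternative. The others were the mouse as a random effect, 3 rescalings, 2 level filters, the mean of probe sets, all probe sets, array weights, a trended robust prior, and each array or mouse left out in turn.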

Additional observations from a re-analysis of the deposited data

How the results depend on the processing

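The 5 called receptors kept their direction and call under all alternatives that tested them, 20 each, except that Tlr3 was left out with the 50% of genes of lowest level. The number of receptors called was 5 or 6. Tlr7 was also called with a common median (0.28), without the 25% or 50% of genes of lowest level (0.26 each), with a trended robust prior (0.26) and with array weights (0.27), and ranged from 0.18 to 0.32 when an array or a mouse was left out. With the mouse as a replicate block, Tlr9 differed by -1.58 and Tlr7 by 0.26 (adjusted p = 0.0522), no receptor call changed, 6164 genes were called in place of 6748, the adaptor and negative regulator lists had 4 and 6 called genes, and in the ligand list S100a8 replaced Fn1; no other list's calls changed.

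Some genes that were not called changed sign, while Tlr7, Ly96 and Unc93b1 kept theirs. Quantile normalization put Tlr1 at -0.02 and cyclic loess at -0.05, and it was -0.03 to 0.18 when an array or a mouse was left out. Tlr4 was 0.00 with a common median and -0.07 to 0.03 with arrays or mice left out, and Tlr6 then was -0.18 to 0.04. Tlr12 was 0.01 and 0.04 after quantile normalization and cyclic loess and -0.20 to 0.08 with arrays or mice left out. Tnf was 0.01 with a common median, 0.00 with array weights and -0.10 to 0.04 with arrays or mice left out.

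With an array or a mouse left out, 3998 to 6887 genes were called (3998 without mouse 3), 2 to 5 adaptors, 3 to 7 kinases and ligases, 5 to 8 transcription factors, 4 to 8 negative regulators and 0 to 1 transport genes. The transport count was 0 with a common median and with all probe sets tested. With the background at the 99th percentile 2 receptor and subset pairs, both Tlr3, were not above it, against 0 at the 95th. The cause of these shifts was not tested. Pairs of arrays of 1 subset correlated at 0.990 to 0.993 across probe sets, and pairs of different subsets at 0.979 to 0.982.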
